A study of Mus musculus with 15 samples.

Results

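The Egr and Nr4a genes are 7 genes for transcription factors that neurons switch on within minutes of activity: Egr1, Egr2, Egr3, Egr4, Nr4a1, Nr4a2 and Nr4a3. The members are every array probe whose platform-annotation symbol was 1 of these 7 names, which gave 9 probes among 24607 targets, or 7 genes of 15923 named on the array. Of these 9 probes, 8 (6 of the 7 genes) passed the filter on dim probes, a detection p below 0.05 on at least 3 arrays, and were tested among 14154 probes. The probe of Nr4a1 was at background on every array and did not pass the filter.

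The arrays came from a study of kainate-induced death of neurons. Primary cortical neurons were prepared from fetal Swiss Albino mice at gestation day 15 to 16, and the labels give the age of the culture as day 5. Kainate, which opens AMPA-type and kainate-type glutamate receptor channels, was applied at 100 µM. Kainate arrays were made at 5 h (3 arrays), 15 h (3 arrays) and 24 h (3 arrays), and 6 control arrays carried cultures with no agent at a treatment time of 0. The cultures were described with no genetic change, and all groups share the strain, tissue and culture age. The labels do not say whether replicates were separate cultures, so the p-values measure the spread between these arrays, which may be technical. All controls belong to time 0 and the position on each of the 3 beadchips was fixed by group, so treatment, hours in culture and chip position cannot be told apart.

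Egr proteins bind GC-rich sites through zinc fingers and Egr1, Egr2 and Egr3 are held in check by the corepressors Nab1 and Nab2. Nr4a proteins are orphan nuclear receptors that act without a known natural ligand in their pocket, and their activity therefore follows their amount. Both families are immediate early genes: calcium entry through glutamate receptors activates the kinases that phosphorylate CREB, which binds the cyclic AMP response element (CRE), and the serum response factor with its ternary complex partners, which binds the CArG box. In cortex, Egr1 is used as a mark of recent activity, and Nr4a2 is known for the dopaminergic lineage and for protection of stressed neurons.

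The sequence just before the annotated start is shown for the members that rose most or stayed high, since the search below asks which of these letters they share. RefSeq windows for assembly GRCm38.p6 were given for 5 of the 7 members, with 9 windows because Egr2 has 5 annotated starts. None was given for Egr1 or Egr3. Each run below is the 250 bases before the start, read 5′ to 3′ on the strand of the gene, and capitals mark motif matches. The Egr4 window lies at chr6:85513590-85513839 on the minus strand, the Egr2 window (start 5 of 5) at chr10:67537680-67537929 on the plus strand, the Nr4a2 window at chr2:57124004-57124253 on the minus strand and the Nr4a3 window at chr4:48045055-48045304 on the plus strand.
Egr4: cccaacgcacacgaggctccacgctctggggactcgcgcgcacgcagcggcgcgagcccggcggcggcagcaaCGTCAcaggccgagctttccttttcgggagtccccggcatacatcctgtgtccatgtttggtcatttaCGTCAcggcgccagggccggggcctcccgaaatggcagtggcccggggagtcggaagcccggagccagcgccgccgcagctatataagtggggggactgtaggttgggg
Egr2: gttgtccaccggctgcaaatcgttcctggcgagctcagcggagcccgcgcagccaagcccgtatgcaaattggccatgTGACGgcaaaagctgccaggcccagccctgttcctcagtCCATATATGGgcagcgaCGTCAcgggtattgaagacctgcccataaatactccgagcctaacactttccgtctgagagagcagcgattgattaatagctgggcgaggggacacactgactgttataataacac
Nr4a2: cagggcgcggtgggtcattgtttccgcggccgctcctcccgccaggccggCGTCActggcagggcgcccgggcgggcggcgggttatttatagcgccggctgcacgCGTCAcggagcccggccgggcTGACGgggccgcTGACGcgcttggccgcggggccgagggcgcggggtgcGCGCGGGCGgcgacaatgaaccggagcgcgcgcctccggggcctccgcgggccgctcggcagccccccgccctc
Nr4a3: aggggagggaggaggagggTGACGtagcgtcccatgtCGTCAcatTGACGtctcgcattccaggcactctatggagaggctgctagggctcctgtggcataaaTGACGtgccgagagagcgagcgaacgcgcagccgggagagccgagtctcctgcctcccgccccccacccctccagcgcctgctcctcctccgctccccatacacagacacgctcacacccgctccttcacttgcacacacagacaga

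The motifs searched, on both strands, were the full CRE TGACGTCA, its half-site TGACG (which also lies inside the full CRE), the CArG box, the Egr site GCGNGGGCG and the Nr4a monomer element NBRE AAAGGTCA. The CRE half-site was found in 7 of the 9 windows, against 17.8% of 32851 RefSeq windows of the same length, and at all 5 genes. The half-site holds the letters CG, and the 9 windows were 54% to 80% G or C. The RefSeq windows were not matched for this, so the shares are no test of these genes. Nr4a2, Nr4a3 and Nr4a1 each held 4 half-sites, Egr4 held 2, and Egr2 held 2 before its starts 3, 4 and 5, which overlap in sequence. Among these 5 genes the CArG box was found at Egr2 only, in 4 of its 5 windows, against 1.47% of all windows. The windows of starts 3, 4 and 5 share the same box. Egr1 and Egr3 were not searched. The Egr site was found in the windows of Nr4a2 and Nr4a1, against 4.7% of all windows. Neither the full CRE (1.55% of all windows) nor the NBRE (1.34%) was found in any of the 9. A match describes the letters and does not show that a factor binds there.

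**Figure D1:**
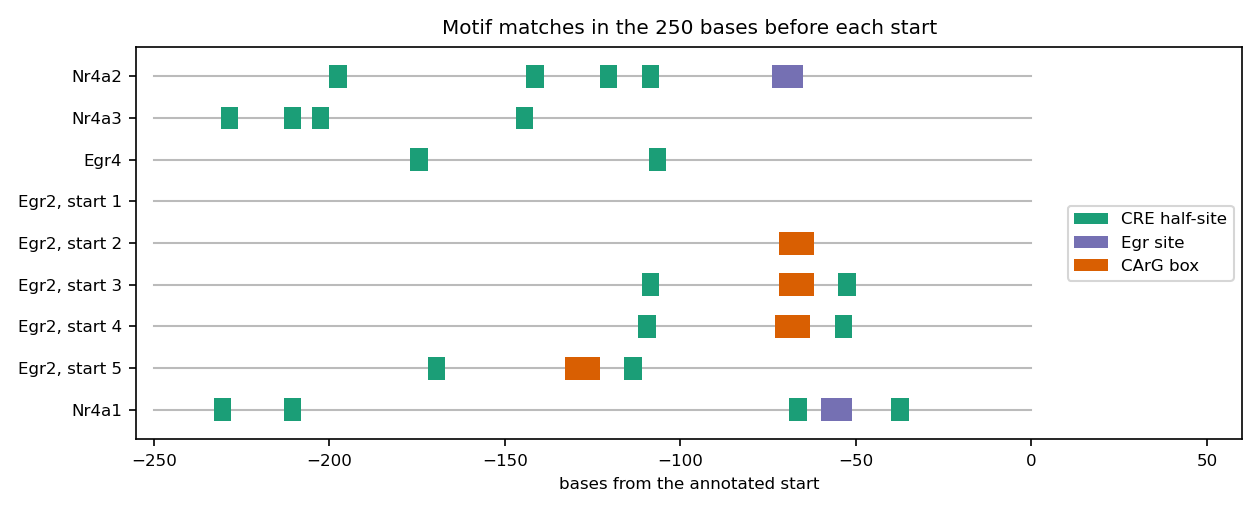
Motif matches in the 250 bases before each annotated start of 5 member genes; the x axis is the distance in bases from the start, each grey line is 1 window and each coloured block is a match on either strand. The half-site lies in 7 of the 9 windows, and the CArG box in 4 windows of Egr2.

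Bead numbers and shares of targets detected were similar across the arrays, but the median signal was not even over the groups. The median number of beads behind a signal was 34 to 35, and 49.5% to 55.2% of targets were detected (detection p below 0.05). The median signal per array was 53.4 to 70.4 intensity units. Before normalization it was 53.4, 57 and 56.5 on the 24 h arrays, all below the 62, 67.2 and 70.4 on the 5 h arrays. Correlations across probes between arrays of 1 group were 0.978 to 0.996 for controls and 0.986 to 0.996 for the kainate groups. Control replicates 1 and 3 differed from the remaining 4, and on these 2 arrays and the 3 arrays at 5 h a single very bright target had a detection p above 0, which it had on no other array. The changes of the 5 genes that rose are given with and without the 2 controls, and at 5 h with those 5 arrays as a block. The block assumes that the 5 h arrays share the difference of the 2 controls from the remaining 4. Its 5 h changes therefore set the 5 h arrays against those 2 controls alone. Whether the 5 h arrays share that difference was not tested. Levels below are background-corrected, quantile-normalized log2 intensities. The level of 1 probe is not set against that of another, since probes differ in how strongly they bind. Only changes between arrays are compared.

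On the kainate arrays 5 of the 6 tested genes were higher than in controls at 5 h, 15 h and 24 h. None was lower at any time. The background is broad: at 5 h, 38.7% of all tested probes passed the threshold (17.9% higher and 20.8% lower), at 15 h 45.3% (21.8% higher and 23.5% lower) and at 24 h 43% (21.1% higher and 21.9% lower). For the same 5 genes every kainate array lay above every control at each time, which held for 16.2% of all tested probes at 5 h, 20% at 15 h and 16.7% at 24 h. The median change of the 6 genes was 2.49 on the log2 scale at 5 h, 2.71 at 15 h and 2.24 at 24 h, against -0.03, -0.03 and -0.01 over all tested probes. The changes of Egr4 and Egr2 were largest at 5 h and were smaller at 15 h and 24 h, while those of Nr4a2 and Nr4a3 lay within 2.16 to 2.93 at all 3 times. How far Nr4a3 differed from Egr2 and Egr4 in this depends on how 5 arrays named above are treated, as given below.

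Egr4, the family member that lacks the Nab-binding domain of the others, had the largest change of the tested member probes at 5 h and 15 h. Its probe (ILMN_1215713) read 12.02, 11.95 and 11.83 at 5 h, 10.19, 10.04 and 9.88 at 15 h and 9.21, 9.01 and 9.44 at 24 h, against controls with a lowest level of 5.91, a median of 6.38 and a highest of 7.76. All kainate arrays lay above all controls, and the 3 times did not overlap each other. In raw intensity the 5 h arrays gave 4804.3 to 5048.3, the 15 h arrays 861.5 to 1280.7 and the 24 h arrays 420.3 to 557.3, against 77.6 to 269 in controls. The change was 5.3 ± 0.3 at 5 h (SE, 3 kainate and 6 control arrays), or 39.3-fold, with a limma adjusted p of 2.3e-09. It was 3.4 ± 0.3 (10.6-fold, limma adjusted p = 1.69e-07) at 15 h and 2.58 ± 0.3 (5.99-fold, limma adjusted p = 3.85e-06) at 24 h. At 5 h this was rank 4 among 14154 probes by size of rise, at 15 h rank 11 and at 24 h rank 27. Control replicates 1 and 3 read 7.76 and 7.26, above the 5.91 to 6.54 of the other 4 controls. Without them the changes were 5.73, 3.84 and 3.02, and with the 5 arrays as a block the 5 h change was 4.43.

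Egr2, known for its part in myelination and hindbrain patterning as well as in neuronal activity, followed the same order of times. Its probe (ILMN_2623984) read 9.64, 9.37 and 9.36 at 5 h, 8.32, 8.19 and 8.11 at 15 h and 7.55, 7.46 and 7.82 at 24 h, against controls from 4.94 to 5.84 with a median of 5.08. No kainate array overlapped a control or an array of another time. The change was 4.28 ± 0.16 at 5 h (19.5-fold, limma adjusted p = 1.22e-11), 3.03 ± 0.16 at 15 h (8.2-fold, limma adjusted p = 6.4e-10) and 2.44 ± 0.16 at 24 h (5.41-fold, limma adjusted p = 7.57e-09). It ranked 10, 18 and 40 among all tested probes at the 3 times. The probe was detected on all 15 arrays, but its control signals of 57.1 to 88.9 intensity units lie close to the array medians, so the size of the fold rests on a dim control level. Without control replicates 1 and 3 the changes were 4.41, 3.16 and 2.56, and with the 5 arrays as a block the 5 h change was 4.04.

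Egr1, the best known member and a common marker of active neurons, had control signals of 644.9 to 1129.8 intensity units and a smaller change than Egr2 and Egr4. Its probe (ILMN_2662926) read 11.76, 11.65 and 11.68 at 5 h, 11.17, 11.02 and 11.04 at 15 h and 10.99, 11.01 and 11.27 at 24 h, against controls from 9.0 to 9.86 with a median of 9.74. Each kainate array lay above every control, and the 15 h and 24 h arrays overlapped. The change was 2.12 ± 0.16 at 5 h (4.34-fold, limma adjusted p = 4.6e-08), 1.5 ± 0.16 at 15 h (2.82-fold) and 1.51 ± 0.16 at 24 h (2.85-fold, limma adjusted p = 1.07e-06). Control replicates 1 and 3, at 9.32 and 9, lay below the 9.69 to 9.86 of the other controls, and without them the changes were 1.91, 1.29 and 1.3 (2.53 at 5 h with the 5 arrays as a block).

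Egr3, which in the brain is induced by activity and is required for muscle spindles, showed no change that passed the test. Its probe (ILMN_2653543) read 5.21, 5.09 and 5.5 at 5 h, 5.45, 4.96 and 5.14 at 15 h and 5.26, 5.19 and 5.3 at 24 h, against controls from 4.95 to 5.53 with a median of 5.18. All 4 groups overlapped. The change was 0.05 at 5 h (95% interval -0.25 to 0.35), -0.03 at 15 h (-0.33 to 0.26) and 0.03 at 24 h (-0.26 to 0.33). The probe was detected on all 15 arrays, with a signal of 55.3 to 90.1 intensity units and a detection p as high as 0.04631, so these values describe a probe close to its detection limit and a small change of the transcript could be missed.

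Nr4a2, the receptor also called Nurr1, stayed high over the whole time course. Its probe (ILMN_1254547) read 9.83, 9.94 and 10.04 at 5 h, 10.44, 10.48 and 10.33 at 15 h and 10, 10.06 and 9.33 at 24 h, against controls from 7.34 to 7.75 with a median of 7.45. No kainate array came near the controls, and 1 array at 24 h (replicate 3, 9.33) was below the other 2. The change was 2.45 ± 0.14 at 5 h (5.46-fold, limma adjusted p = 1.86e-09), 2.93 ± 0.14 at 15 h (7.62-fold, limma adjusted p = 1.7e-10) and 2.31 ± 0.14 at 24 h (4.97-fold, limma adjusted p = 2.43e-09). It ranked 37, 20 and 50 among all tested probes. Without control replicates 1 and 3 the changes were 2.51, 3 and 2.38, and with the 5 arrays as a block the 5 h change was 2.32.

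Nr4a3, the receptor also called NOR-1, was measured by 3 probes. The one with the highest mean over the 15 arrays (ILMN_1257794), which stands for the gene in the counts, read 8.45, 8.35 and 8.56 at 5 h, 8.41, 8.42 and 8.42 at 15 h and 8.11, 8.2 and 7.93 at 24 h, against controls from 5.4 to 6.34 with a median of 6.05. All kainate arrays lay above all controls, and the 5 h and 15 h arrays overlapped. Its change was 2.53 ± 0.18 at 5 h (5.77-fold, limma adjusted p = 2.17e-08), 2.5 ± 0.18 at 15 h (5.64-fold, limma adjusted p = 1.35e-08) and 2.16 ± 0.18 at 24 h (4.47-fold, limma adjusted p = 7.51e-08). ILMN_1233670 changed by 3.17, 3.15 and 2.82 (SE 0.23 each) and was detected on 4 of 6 controls. ILMN_2666945 changed by 1.78, 1.73 and 1.46 (SE 0.16 each) and was detected on 1 of 6 controls, so it passed the filter on dim probes through its kainate arrays and had to differ. The 2 other probes therefore rest on dim control levels, and the sizes of the 3 changes differ. Control replicates 1 and 3 read 5.46 and 5.4 on ILMN_1257794, below the 5.99 to 6.34 of the other 4 controls. Without them its changes were 2.28, 2.25 and 1.91, and those of ILMN_1233670 were 2.87, 2.85 and 2.52. With the 5 arrays as a block the 5 h changes were 3.02 and 3.76.

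Nr4a1, the receptor also called Nur77, gave no measurement. Its probe (ILMN_2701881) was not detected on any of the 15 arrays, with signals of 50.9 to 63.5 intensity units on the 5 h arrays, 38.8 to 55.5 on the 15 h arrays and 37.6 to 44.2 on the 24 h arrays, against 41.1 to 57.9 in controls. The detection p values were 0.05808 to 0.88065. All groups are not well above background, so no fold is given. With no filter on dim probes, 24 h against 5 h had a limma adjusted p of 0.0247 and 5 h against control one of 0.0588, from arrays none of which detected the probe, and the probe says nothing on whether the transcript was present.

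**Figure D2:**
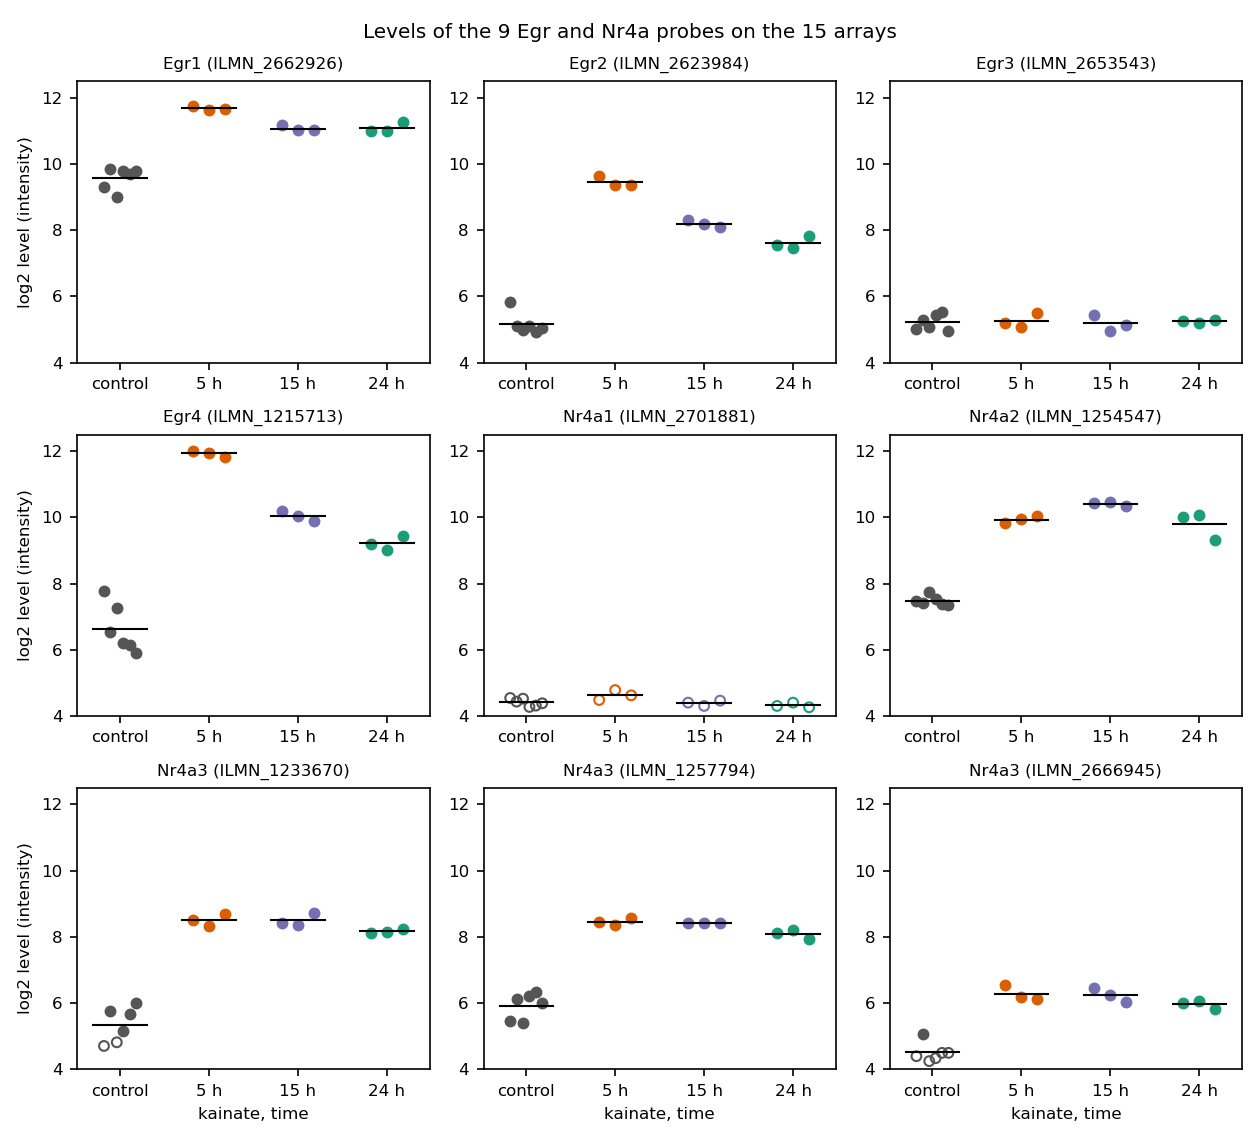
Background-corrected, quantile-normalized log2 level (y axis) of each member probe on the 15 arrays, by group (x axis: control, then 5 h, 15 h and 24 h of kainate); each point is 1 array, open points are arrays where the probe was not detected, and the line is the group mean. Egr2 and Egr4 are highest at 5 h, Nr4a2 and Nr4a3 stay near their 5 h level, Egr3 stays near 5.2 in all groups and Nr4a1 is open on all 15 arrays.

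**Figure D3:**
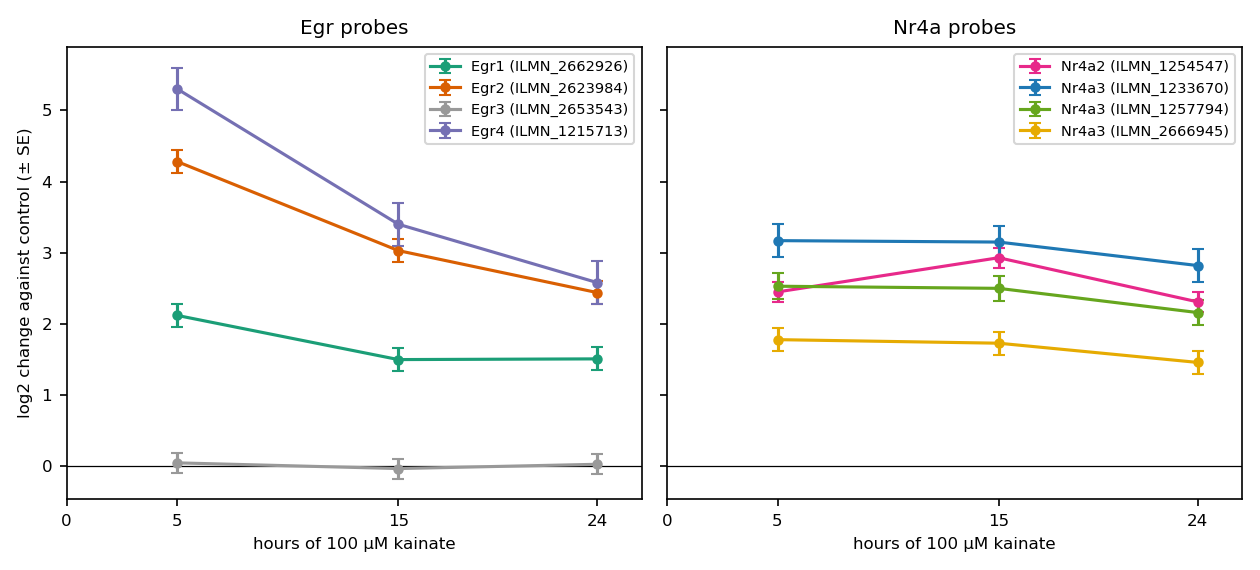
Log2 change against control (y axis, with SE from the limma fit) at 5 h, 15 h and 24 h of kainate (x axis, to scale) for the 4 Egr probes, left, and the 4 tested Nr4a probes, right. Egr4 and Egr2 start at 5.3 and 4.28 and end at 2.58 and 2.44, whereas the 3 Nr4a3 probes and Nr4a2 end within 0.37 of where they started.

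The comparison of later with earlier kainate arrays asks how the levels moved after 5 h. At 15 h, 3 of 6 genes were lower than at 5 h and 1 was higher, beside 33% of all probes passing (17% higher, 16% lower). With median centring the split over all probes was 1226 higher and 3295 lower, and with the authors' ratios 1398 and 3281, against 2411 and 2261 here. For the 3 lower genes every 15 h array lay below every 5 h array, which held for 27.2% of all probes. Egr4 fell by 1.9 on the log2 scale (SE 0.35, 3 against 3 arrays, limma adjusted p = 0.000635), Egr2 by 1.25 (SE 0.19, limma adjusted p = 0.000112) and Egr1 by 0.62 (SE 0.18, limma adjusted p = 0.015). Nr4a2 was 0.48 ± 0.16 higher (limma adjusted p = 0.0286). Nr4a3 differed by -0.03 (95% interval -0.46 to 0.4) and Egr3 by -0.08, and neither passed. The rise of Nr4a2 is the least firm of these: it did not pass with median centring of the arrays (0.26, adjusted p = 0.285), with the authors' deposited ratios (0.29, adjusted p = 0.165), or without replicate 1 or 2 at 5 h or replicate 1 or 2 at 15 h (0.43 to 0.48, adjusted p = 0.0687 to 0.0984). The fall of Egr4 was 0.59 with the 5 arrays named above as a block (adjusted p = 0.0731), and in the same fit Nr4a3 (ILMN_1257794) was lower by 0.77 (adjusted p = 0.0011), Egr2 by 0.88 and Egr1 by 1.24. The fall of Egr1 missed the threshold without replicate 1 at 5 h or replicate 2 at 15 h, with adjusted p of 0.0506 and 0.0511.

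Between 24 h and 15 h, 0 of the 6 genes passed the limma threshold, against 0.608% of all probes (0.212% higher, 0.396% lower), and 3 of 6 had an unadjusted p below 0.05. These were Egr2 (-0.6, adjusted p = 0.161), Egr4 (-0.82, adjusted p = 0.314) and Nr4a2 (-0.62, adjusted p = 0.0972). Egr1 differed by 0.01 and Nr4a3 by -0.34, within intervals that include 0. Egr2 and Nr4a2 were lower with median centring (-0.81 and -0.88, adjusted p = 0.0307 and 0.0168) and with the authors' ratios (-0.67 and -0.8, adjusted p = 0.0115 each). Without control replicates 1 and 3, Egr2 and Egr4 passed with the same differences (adjusted p = 0.0194 and 0.0175), and Egr2 also without control replicate 1 alone (adjusted p = 0.0267).

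At 24 h, 3 of 6 genes were lower than at 5 h and none was higher, beside 35.6% of all probes passing (18.6% higher, 17% lower). With median centring 775 probes were higher and 5454 lower, and with the authors' ratios 852 and 4866, against 2633 and 2405 here. Every 24 h array lay below every 5 h array for these 3 genes and for all 3 probes of Nr4a3, which held for 24% of all probes. Egr4 fell by 2.72 (SE 0.35, limma adjusted p = 2.8e-05), Egr2 by 1.85 (SE 0.19, limma adjusted p = 2.61e-06) and Egr1 by 0.61 (SE 0.18, limma adjusted p = 0.016). Nr4a2 differed by -0.14 (95% interval -0.47 to 0.2, limma adjusted p = 0.534) and Nr4a3 by -0.37 (-0.8 to 0.06, limma adjusted p = 0.17). These 2 depend on the scaling: with median centring Nr4a2 was lower by 0.62 and Nr4a3 by 0.81 (adjusted p = 0.00789 and 0.00362), and with the authors' ratios by 0.51 and 0.66. The median of all probes in this contrast was -0.27 with median centring, against 0.03 here. Relative to it, Nr4a2 changed by -0.35 and Nr4a3 by -0.54 with median centring, against -0.16 and -0.39 here. Nr4a3 (ILMN_1257794) did not depend on the scaling alone. It also passed without control replicates 1 and 3 (-0.37, adjusted p = 0.0116) and with only the 5 h and 24 h arrays fitted (-0.37, adjusted p = 0.0356). With no background correction it passed as well (-0.32, adjusted p = 0.0477). ILMN_1233670 passed with only those 2 groups fitted (-0.35, adjusted p = 0.0481). With the 5 arrays as a block, Nr4a3 was lower by 1.11 (adjusted p = 6.28e-05), Egr4 by 1.41, Egr2 by 1.48 and Egr1 by 1.23, while Nr4a2 differed by 0.06. The fall of Egr1 missed the threshold without replicate 1 at 5 h or replicate 1 or 2 at 24 h (adjusted p = 0.0506 to 0.0533).

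A difference between 2 probes on the same array cancels a shift of the whole array. Taken this way, Egr4 was lower at 24 h than at 5 h by 2.35 against Nr4a3 and by 2.58 against Nr4a2. Egr2 was lower by 1.48 and 1.71. In these 4 of 6 pairs no array at 24 h overlapped one at 5 h. With 3 against 3 arrays the exact permutation test gave its smallest possible two-sided p of 0.1 (0.15 after Benjamini-Hochberg adjustment over 6 pairs). Only Egr1, Egr2 and Egr4, which were lower at 24 h than at 5 h above, were paired, and Egr3 was left out. The pairs also share probes, so their count is no test of the 2 families. Under median centring the 4 values were -2.45, -2.64, -1.45 and -1.64. Median centring only shifts whole arrays, which these differences cancel, so this is no separate check. With the 5 arrays as a block, the values were -0.3, -1.47, -0.38 and -1.54. The block takes the difference of control replicates 1 and 3 from the other controls out of the 5 h level. These values thus rest on those controls and on the assumption that the 5 h arrays share their difference. The differences against Nr4a2 were then larger than those against Nr4a3. Egr1 differed from Nr4a3 by -0.24 and from Nr4a2 by -0.47, with overlapping arrays (exact permutation p = 0.4 and 0.3, two-sided).

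**Figure D4:**
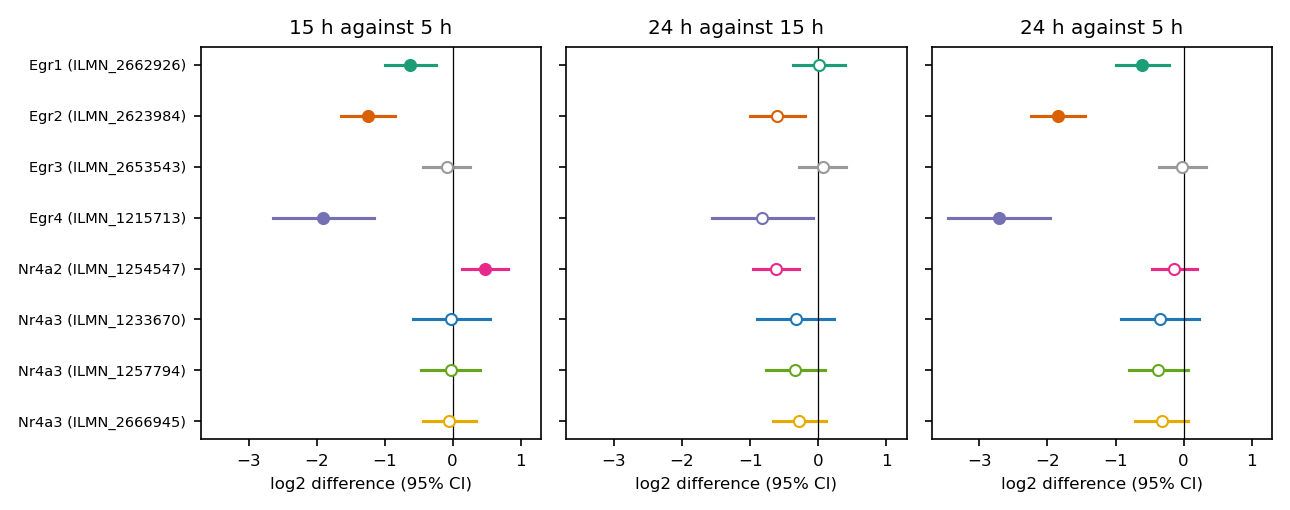
Log2 difference between kainate times (x axis, with 95% interval) for the 8 tested member probes; filled points passed limma's adjusted p below 0.05. Egr1, Egr2 and Egr4 are filled and below 0 at 15 h and at 24 h against 5 h, and the 3 Nr4a3 probes are open in all 3 panels.

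The changes also held within the beadchips, each of which carried 2 controls and 1 array of each time. Over the 3 chips, the 5 h change was 4.87 to 5.81 for Egr4, 4.17 to 4.37 for Egr2, 1.94 to 2.25 for Egr1, 2.3 to 2.68 for Nr4a2 and 2.39 to 2.66 for Nr4a3 (ILMN_1257794). The same 5 genes rose at each of the 3 times when any 1 array was left out.

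Summed levels of cell type markers differed between the times. A sum weighs the brightest markers most, so it can differ from the counts of single genes. Of 4 tested fibroblast and meningeal markers, 2 rose and 1 fell at 5 h and at 24 h, and 1 rose and 1 fell at 15 h. Their median changes were 0.16, 0.1 and 0.23 at 5 h, 15 h and 24 h. Of 7 tested oligodendrocyte-lineage markers, 1 rose and 2 fell at 5 h, none passed at 15 h, and 3 rose at 24 h. Their medians were 0.13, -0.06 and 0.16. No neuron marker of 9 rose, and 2, 6 and 7 fell at 5 h, 15 h and 24 h. Among 7 astrocyte markers 4, 6 and 6 rose, and 1 fell at 24 h. Among 8 progenitor markers 4, 8 and 5 rose and none fell. Microglial markers (5) had 1 fall at 5 h, 3 rises and 1 fall at 15 h, and 3 rises at 24 h. Endothelial and mural markers (4) had 2 rises at 15 h and at 24 h. Over all genes 41.4%, 47.6% and 45% passed. The summed intensity of 9 tested neuron markers of 12 was 14766 to 17145 on the 5 h arrays, 11340 to 12279 on the 15 h arrays and 9932 to 11533 on the 24 h arrays, against 14497 to 18495 in controls. That of 7 tested astrocyte markers of 10 was 21357 to 21976, 34649 to 35893 and 28827 to 33252, against 16603 to 17435. That of 8 tested progenitor markers of 10 was 10616 to 11690, 17451 to 18425 and 14985 to 16125, against 5888 to 7104. The sum of 7 tested oligodendrocyte-lineage markers of 10 was 8111 to 8776, 10293 to 11027 and 12323 to 14878, against 10807 to 12120. For 5 tested microglial markers of 10 it was 140 to 149, 389 to 424 and 323 to 571, against 153 to 191. For 4 tested endothelial and mural markers of 9 it was 567 to 644, 815 to 953 and 732 to 1391, against 367 to 633, and for 4 tested fibroblast and meningeal markers of 7 it was 2145 to 2204, 1677 to 1881 and 1738 to 1989, against 2303 to 2612. Gad2 among the neuron markers, Slc1a2 and S100b among the astrocyte markers, Pax6 among the progenitor markers, Mag among the oligodendrocyte-lineage markers, Itgam and Ctss among the microglial markers, Tek, Flt1 and Kdr among the endothelial and mural markers, and Col1a2 and Lum among the fibroblast and meningeal markers were not detected on any array. In bulk RNA, fewer cells of a type and less RNA per cell cannot be told apart, and the part of these shifts in the Egr and Nr4a changes was not tested.

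Genes around the 2 families were grouped in 6 lists by their known relation to them, with 1 probe per gene. The background per gene was 41.4% passing at 5 h (18.6% higher, 22.9% lower), 47.6% at 15 h (23.2% higher, 24.5% lower) and 45% at 24 h (22.7% higher, 22.3% lower) among 9824 genes, and the median changes over all genes were -0.04, -0.02 and 0. The lists are described by their counts and medians only. The counts include genes that passed the filter on dim probes through 1 side only and had to differ, and for those below that were detected on no array of the dimmer group the fold is a bound with no p.

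Of 6 tested corepressors and partners, 1 rose and 1 fell at 5 h, 1 rose and 2 fell at 15 h, and 1 rose and 1 fell at 24 h (medians -0.1, 0.11 and -0.12). Nab1, which binds Egr1, Egr2 and Egr3 and represses them, averaged 7.85 ± 0.13 at 5 h, 8.05 ± 0.12 at 15 h and 8 ± 0.11 at 24 h (SD, n = 3 each), against 7.32 ± 0.22 in controls (SD, n = 6). The changes of this probe (ILMN_2721761) were 0.52 ± 0.12, 0.72 ± 0.12 and 0.67 ± 0.12 (SE). Another Nab1 probe (ILMN_1239413) changed by 0.92, 1.03 and 0.94. Nab2, the other corepressor, fell at 15 h by 0.39 (SE 0.12, limma adjusted p = 0.017). Of the retinoid X receptors, which pair with Nr4a1 and Nr4a2, Rxrb fell by 0.62 at 5 h. Rxrg was detected on 4 of 6 controls and on 0 of the 15 h and 24 h arrays, and was at least 1.23-fold lower at 15 h and 1.25-fold lower at 24 h.

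Of 17 tested upstream activators, 4 rose and 2 fell at 5 h, 3 rose and 5 fell at 15 h, and 3 rose and 4 fell at 24 h (medians 0.02, -0.04 and -0.14). Srf, the serum response factor, averaged 11.85 ± 0.06 at 5 h, 11.47 ± 0.01 at 15 h and 11.29 ± 0.08 at 24 h (SD, n = 3 each), against 9.98 ± 0.07 in controls (SD, n = 6). Its changes were 1.87, 1.49 and 1.3 (SE 0.07 each, limma adjusted p = 2.58e-11 to 1.67e-09). Crtc2, a coactivator of CREB, rose by 0.97 ± 0.14 at 5 h, and Rps6ka3, a kinase of CREB, by 0.93 ± 0.14 at 15 h and 0.69 ± 0.14 at 24 h. Rps6ka5, another CREB kinase, fell by 0.74 at 5 h, Map2k2 by 0.42 at 5 h, and Camk2b by 0.9 at 15 h and 0.81 at 24 h. Camk4, the nuclear calmodulin kinase, was detected on 4 of 6 controls and on 0 of the 15 h and 24 h arrays, and was at least 1.59-fold lower at 15 h and 1.53-fold lower at 24 h.

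Of 15 tested genes reported as Egr targets, 5 rose and 4 fell at 5 h, 6 rose and 6 fell at 15 h, and 5 rose and 4 fell at 24 h (medians 0.13, 0.2 and 0.12). Arc, a synaptic activity gene, averaged 9.02 ± 0.15 at 5 h, 7.52 ± 0.01 at 15 h and 7.59 ± 0.11 at 24 h (SD, n = 3 each), against 5.53 ± 0.21 in controls (SD, n = 6), with changes of 3.49, 1.98 and 2.05 (SE 0.11 each). Gadd45b, which acts in DNA repair and demethylation, was not detected on any control and was at least 3.09-fold higher at 5 h, 3.37-fold at 15 h and 3.35-fold at 24 h. Syn2, a synaptic vesicle protein, fell by 0.67, 1.26 and 2.05 (SE 0.24 each), Ache by 1.73 at 15 h and 1.29 at 24 h, and Cdk5r1 by 0.44 at 5 h. Genes of this list went both ways.

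Of 7 tested genes reported as Nr4a targets, 4 rose and 0 fell at 5 h and at 15 h, and 5 rose and 1 fell at 24 h (medians 0.55, 0.52 and 0.53). Bdnf, the neurotrophin, averaged 7.43 ± 0.08 at 5 h, 8.15 ± 0.06 at 15 h and 8.15 ± 0.06 at 24 h (SD, n = 3 each), against 4.98 ± 0.88 in controls (SD, n = 6), where it was detected on 2 arrays, so it passed the filter through its kainate arrays and had to differ. Its changes were 2.45, 3.18 and 3.18 (SE 0.36 each). Pdk4, which turns off pyruvate oxidation, rose by 1.41, 2.64 and 2.18 (SE 0.14 each), and Eno3 fell by 0.46 at 24 h.

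Of 15 tested other nuclear receptors, 5 rose and 0 fell at 5 h, 5 rose and 1 fell at 15 h, and 6 rose and 1 fell at 24 h (medians 0.27, 0.04 and 0.18). The orphan receptor Rorb rose by 1.46 ± 0.08 at 5 h and 1.03 ± 0.08 at 24 h, and Rora by 1.16 ± 0.13 at 15 h. Esrrb was not detected on any control and was at least 2.28-fold higher at 5 h, 3.62-fold at 15 h and 2.63-fold at 24 h. Nr2f6 fell by 0.42 at 15 h and 0.34 at 24 h.

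Of 8 tested other zinc fingers that bind GC-rich boxes, 3 rose and 1 fell at 5 h, 5 rose and 2 fell at 15 h, and 3 rose and 1 fell at 24 h (medians 0.12, 0.48 and 0.13). Klf4 was not detected on any control and was at least 16.6-fold higher at 5 h, 5.73-fold at 15 h and 5.13-fold at 24 h. Klf9, a thyroid and glucocorticoid responsive factor, averaged 10.92 ± 0.03 at 5 h, 11.75 ± 0.06 at 15 h and 11.45 ± 0.35 at 24 h (SD, n = 3 each), against 9.41 ± 0.08 in controls (SD, n = 6). Zbtb7a fell by 0.55 at 5 h. Klf10 and Wt1 were not detected on the later arrays: Klf10 was at least 1.19-fold lower at 15 h and at 24 h, and Wt1 at least 1.13-fold lower at 15 h, from probes detected on 2 and 3 of the 6 controls.

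**Figure D5:**
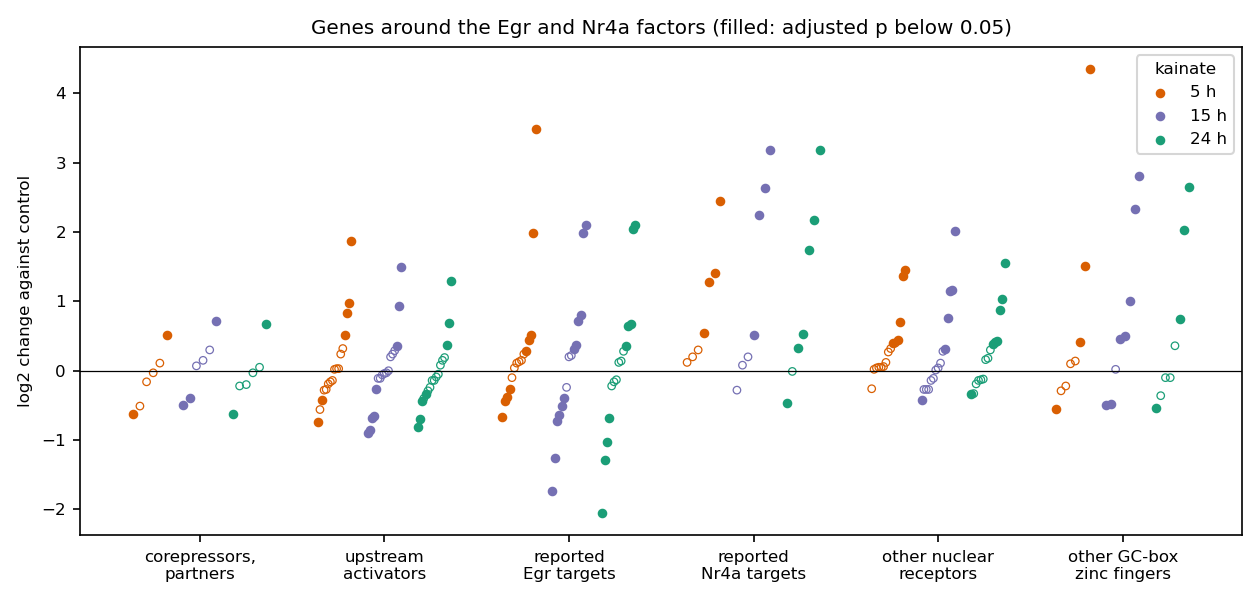
Log2 change against control (y axis) of each tested gene of the 6 lists (x axis) at 5 h, 15 h and 24 h of kainate; each point is 1 gene and filled points passed limma's adjusted p below 0.05. The highest points are Klf4 and Arc at 5 h, and the lowest is Syn2 at 24 h at -2.05.

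The genes most like each member were ranked by Pearson r of log2 levels over the 15 arrays, among 1734 probes whose highest and lowest group means differed by at least 1, as a description with no p. All points share the same arrays and the same 4 groups, so high values are common. For Egr1 the 3 highest were the ERK phosphatase gene Dusp6 (r = 0.984), Ccn1 (0.979) and the kinase gene Sik1 (0.974). For Egr2 they were Fosb (0.993), Esm1 (0.991) and the cyclin gene Ccno (0.989), and for Egr4 Rem2 (0.991), Zfp184 (0.988) and the splicing kinase gene Clk4 (0.988). For Nr4a2 they were the cochaperone gene Bag3 (0.987), Vim (0.987) and Spag4 (0.986), and for Nr4a3 Jun (0.985), Abhd2 (0.982) and Nab1 (ILMN_1239413, 0.977). No ranked probe went above 0.385 for Egr3. Vim is on the progenitor marker list, whose sum rose as given above.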

How the data were processed

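Bead array signals of the 15 arrays are mean bead intensity values, which the authors exported from BeadStudio 3.2.3 without normalization, per the file headers. The deposited detection score is a fraction, 1 minus the detection p-value. The deposited normalized values are a ratio on the linear scale: each signal over its array median, then over the control median of the target, a rule derived from the values. Genes were named from the platform annotation. A further 72 columns of arrays matching no sample were not used.

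Levels were made with limma's neqc (offset 16, quantile, log2) after leaving out 1 bright target (signal over 1000) with a detection p above 0. Probes with detection p below 0.05 on at least 3 arrays were fitted with lmFit and eBayes over all 15 arrays, and Benjamini-Hochberg adjusted p below 0.05 over 14154 probes was the threshold. "Rose" and "fell" are used of probes past it. Where no array of the dimmer group detected a probe, its fold is a bound: the mean of the brighter group against, per array, the higher of its own level and the lowest detected level. Intervals use 15.8 degrees of freedom. The fit was tested on simulated data for 5 h against control. There 90% of probes changed by 1 on the log2 scale were called, and 54% of those changed by 0.5. Far fewer probes were changed in the simulation than passed in the data, so its adjusted threshold was stricter. These rates therefore do not give the share found in the real contrast. Changes between kainate times, with 3 against 3 arrays, were not simulated. All probes of a member are named, and the one with the highest mean level stands for a gene. Of each list, the 2 largest rises and the 2 largest falls at each time were named. The members, lists and tests were chosen with earlier results of these data known. R 4.3.3, limma 3.58.1 and Python 3.11.15 were used.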

Additional observations from a re-analysis of the deposited data

Results flagged for a closer look

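Among the controls, Egr2 on replicate 1 (5.84) and the Nr4a3 probe ILMN_2666945 on replicate 2 (5.07) lay far from the other 5 controls by Dixon's criterion. Chance alone marks about 1 in 20 groups this way.

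By the limma contrast itself, levels differed between kainate times. Egr1 differed by -0.62 at 15 h and -0.61 at 24 h, each against 5 h. In the same order Egr2 differed by -1.25 and -1.85 and Egr4 by -1.9 and -2.72. Nr4a2 differed by 0.48 at 15 h against 5 h.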

How the results depend on the processing

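Members above control numbered 5 of 6 at each kainate time in all settings tried. Changes near 0 turned sign. For Egr3 the values were -0.03 at 5 h and -0.05 at 24 h without control replicates 1 and 3, 0.05 at 15 h with the replicate block, and -0.01 (median centring) and -0.05 (5-array block) at 24 h. Leaving out 1 array gave Egr3 -0.07 to 0.14, -0.17 to 0.08 and -0.02 to 0.1 at 5 h, 15 h and 24 h against control, and -0.22 to 0.04, -0.04 to 0.2 and -0.1 to 0.1 for 15 h against 5 h, 24 h against 15 h and 24 h against 5 h. For 15 h against 5 h it gave Nr4a3 -0.13 to 0.07 (ILMN_1233670), -0.08 to 0.02 (ILMN_1257794) and -0.15 to 0.09 (ILMN_2666945), with 2 to 4 members called. Egr1 at 24 h against 15 h was -0.26 with median centring, -0.2 with the authors' ratios and -0.08 to 0.06 with 1 array left out. Nr4a2 at 24 h against 5 h was 0.06 with the 5-array block and -0.27 to 0.1 with 1 array left out, the highest being without 24 h replicate 3.

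At 24 h against 15 h, 86 probes and 0 members were called. Probes numbered 140 with no background correction, 391 with median centring, 505 with the authors' ratios, 144 with offset 50, 139 with no filter, 50 with the replicate block, 238 without control replicates 1 and 3, 295 with the 5-array block, 2 with only those groups fitted, and 7 (without 15 h replicate 2) to 636 (without 24 h replicate 3) with 1 array left out. Members numbered 1, 2 and 2 in the first 3 of these settings, 2 without control replicates 1 and 3, 1 with the 5-array block and 0 to 1 with 1 array left out. At 24 h against 5 h, median centring and the authors' ratios each called 5 members. The cause was not tested.

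Scaling also moved the share of higher calls: 46.3% at 5 h became 61.8% with median centring and 59.4% with the authors' ratios, and 49.1% at 24 h became 22.4% and 25.4%, and for 24 h against 15 h 34.9% became 2.8% and 1.4%. Same-numbered arrays correlated by -0.153 to 0.302 in their deviations from group means, over 0.1 in 5 of 18 pairs (median 0.027). Arrays with different numbers were over 0.1 in 12 of 63 pairs (median -0.014), and arrays on the same beadchip in 10 of 27 (median 0.057). For the kainate arrays the replicate number is also the beadchip, so this check cannot tell whether the numbers pair the arrays. With the replicate block Nr4a2 at 15 h against 5 h was 0.48 with a limma adjusted p of 0.0521. Signal near background limits Egr3, Nr4a1, Nr4a3 probes ILMN_1233670 and ILMN_2666945, and the control level of Egr2. Control signals were also low for Nr4a3 probe ILMN_1257794 (75.2 to 117) and on some arrays for Egr4 (77.6 to 269), against array medians of 53.4 to 70.4. Both of these probes were detected on all 15 arrays, but their folds too rest on rather dim controls. The 5 h change of Egr2 was 3.15 to 4.45 over all settings.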
